A study of Mus musculus with 8 samples.

Results

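Antigen presentation by MHC class II was followed through 7 transcripts in tumor endothelial cells (TECs), namely H2-Aa, H2-Ab1 and H2-Eb1, which encode class II chains, H2-DMa and H2-DMb1, which encode the peptide-exchange factor DM, Cd74, which encodes the invariant chain, and Ciita, the class II transactivator. They were chosen by gene symbol, and all 7 were found among the 33641 symbols of the deposited tables, of which 14964 passed a filter of at least 1 TPM in at least 4 of the 8 libraries. All 7 passed it. TPM, or transcripts per 1000000, give each transcript's share of a library after correction for transcript length, so levels of different genes can be set side by side.

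Lewis lung carcinoma (LLC) cells, a C57BL/6 lung tumor line labelled with mCherry, had been injected into the left lung lobe of mice 6 to 8 weeks old. In endFoxf1+/- mice, tamoxifen-activated Cre under the Pdgfb promoter (Pdgfb-iCreER) deleted exon 1 of 1 Foxf1 allele (Foxf1 fl/+) in endothelial cells, and both groups received tamoxifen. The labels call the other group only control, and the methods describe it in more than 1 way, as littermates with the floxed allele or the Cre transgene alone and as wild-type C57Bl/6 mice. Tumors were dissected on day 21, CD45-CD31+ cells were collected by FACS, and total RNA was sequenced in 4 control and 4 endFoxf1+/- libraries. The libraries are numbered here by their order in the series, and these numbers pair nothing. The labels do not state that each library came from its own mouse, so the p-values measure the spread between these libraries.

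MHC class II molecules display peptides from internalised proteins to CD4+ T cells. An alpha and a beta chain assemble on the invariant chain, proteases trim that chain to a short peptide in the groove, and DM exchanges this peptide for antigen. Dendritic cells, B cells and macrophages are known to carry class II, as are capillary endothelial cells of the lung. Ciita, which interferon gamma can induce, switches the genes on at their promoters. The comparison asks whether losing a Foxf1 allele in endothelium went with a change in these transcripts, as deposited and relative to endothelial and leukocyte transcripts.

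The libraries were not alike in transcripts that mark cell types. Set against the control average, the geometric mean of 20 endothelial markers ranged from 84.9% to 109% over the controls and was 104% in endFoxf1+/- 1 and 106% in endFoxf1+/- 2, but 56.5% in endFoxf1+/- 4 and 5.56% in endFoxf1+/- 3, so transcripts of the labelled cell type were scarce in the latter library. Ptprc, which encodes the CD45 that the sort selected against, was at 8.21, 6.42, 9.13 and 2.94 TPM in controls and at 16.5, 9.93, 91.2 and 6.61 TPM in endFoxf1+/- libraries. Foxf1 itself was at 213, 285, 296 and 331 TPM in controls and at 177, 203, 14.04 and 105 TPM in endFoxf1+/- libraries, where all 4 lay below every control. In bulk libraries such as these, fewer cells of a type and less RNA per cell cannot be told apart. The main values are therefore also given without endFoxf1+/- 3.

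Class II transcripts were abundant in both groups, and for none of the 7 did a test show a difference between them. With limma on log2(TPM + 1) and Benjamini-Hochberg adjustment over all tested genes, 0 of the 7 passed an adjusted p of 0.05, as did 0% of all 14964 tested genes, where the smallest adjusted p was 0.305. None of the 7 had an unadjusted limma p under 0.05, against 5.59% of all tested genes, and none had groups without overlap, against 5.04% of all tested genes. On average 6 of the 7 were lower in endFoxf1+/- libraries and H2-Aa was higher, with a median log2 difference of -0.26 that became -0.37 without endFoxf1+/- 3 and -0.03 without endFoxf1+/- 4. The median over all tested genes was -0.17, and 0.01 and -0.14 without these libraries. Without endFoxf1+/- 3 the single log2 differences were -0.37 for H2-Ab1, -0.57 for H2-Eb1, -0.53 for H2-DMa, -0.23 for H2-DMb1 and -0.33 for Cd74, and those of H2-Aa and Ciita stand with these genes.

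By median TPM over the 8 libraries the order was H2-Aa at 1308, Cd74 at 1170, H2-Ab1 at 680, H2-Eb1 at 242, H2-DMa at 68.6, H2-DMb1 at 57.5 and Ciita at 11.9. H2-Aa and Cd74 did not keep a fixed order, with H2-Aa above Cd74 in 5 of 8 libraries, and neither did the DM subunits, with H2-DMa above H2-DMb1 in 5 of 8. The other neighbours kept their order in 8 of 8 libraries although their ranges overlapped. H2-Aa ranked between 48th and 190th and Cd74 between 40th and 164th among all genes of a library, whereas the transactivator Ciita ranked between 3313th and 9719th. Together the 7 transcripts made up 0.642%, 0.376%, 0.325% and 0.242% of all TPM in controls and 0.379%, 0.287%, 0.562% and 0.282% in endFoxf1+/- libraries. Control 1 and endFoxf1+/- 3 held the largest shares, 1 from each group. A single symbol, Gm20594, held 21.8% of all TPM in endFoxf1+/- 4 and between 5.11% and 11.3% in the other libraries. As TPM are shares of a library, this leaves less for all other genes in endFoxf1+/- 4. Its part in the low values there was not tested.

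**Figure D1:**
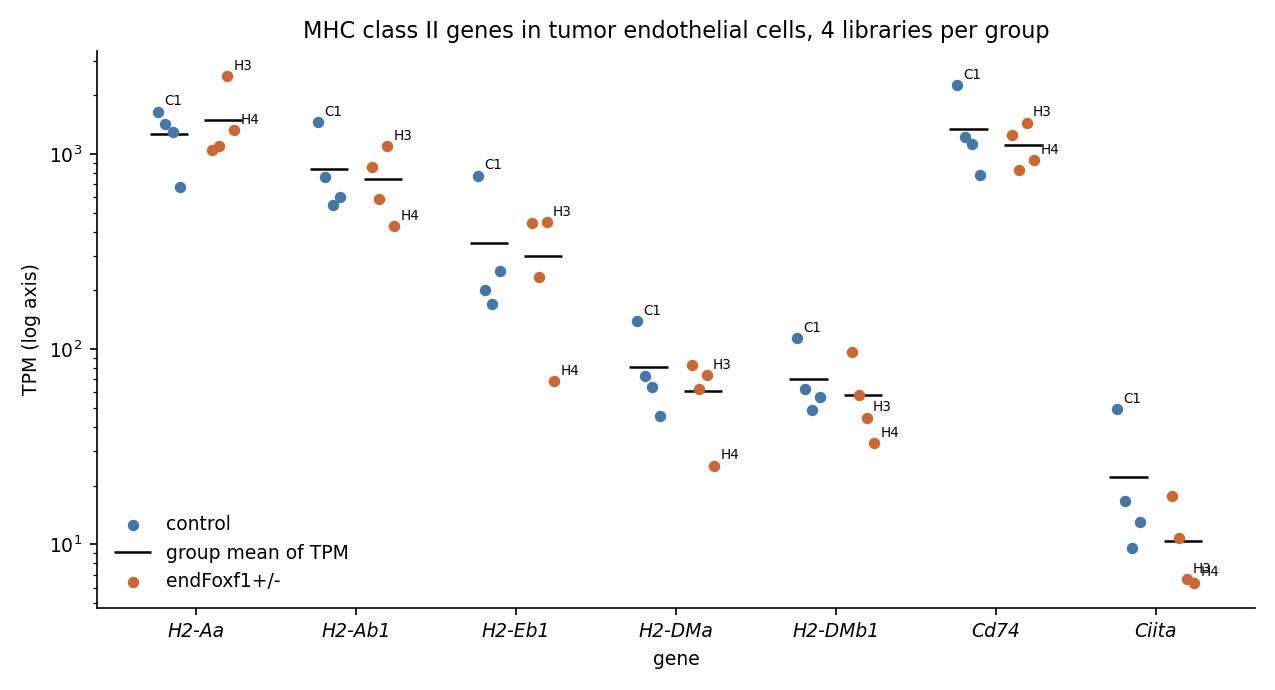
TPM (log axis) of the 7 MHC class II genes in 4 control libraries (blue) and 4 endFoxf1+/- libraries (orange), with the group mean of TPM as a bar. C1 is control 1, H3 and H4 are endFoxf1+/- 3 and 4; the groups overlap for all 7 genes, C1 is the highest library for 6 of them, and H4 is the lowest for 5.

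The classical class II chains varied widely between libraries of the same group. H2-Aa, the I-A alpha chain (GRCm38 chr17:34282744-34287823, minus strand), was at 1647, 1430, 1290 and 679 TPM in controls and at 1043, 1095, 2504 and 1325 TPM in endFoxf1+/- libraries. The highest value was that of the library with the fewest endothelial transcripts, and the lowest was control 4. The means were 1262 ± 415 and 1492 ± 686 TPM (SD, n = 4 each), a log2 difference of 0.22 with a standard error of 0.41 (exact permutation test, two-sided, p = 0.6; limma adjusted p = 0.881). Without endFoxf1+/- 3 the log2 difference was -0.06.

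H2-Ab1, the I-A beta chain that pairs with H2-Aa (chr17:34257689-34269419, plus strand), was at 1456, 758, 545 and 602 TPM in controls and at 860, 586, 1099 and 427 TPM in endFoxf1+/- libraries. The groups overlapped almost fully, with control 1 highest and endFoxf1+/- 4 lowest. The means were 840 ± 420 and 743 ± 297 TPM (SD, n = 4 each), a log2 difference of -0.15 with a standard error of 0.41 (exact permutation test, two-sided, p = 0.771; limma adjusted p = 0.920). The ratio of alpha to beta chain transcript, H2-Aa to H2-Ab1, was 1.13, 1.89, 2.37 and 1.13 in controls and 1.21, 1.87, 2.28 and 3.10 in endFoxf1+/- libraries, so H2-Aa exceeded its partner in 8 of 8 libraries and the ratio overlapped between the groups (exact permutation test, two-sided, p = 0.343).

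H2-Eb1, the I-E beta chain (chr17:34305867-34316674, plus strand), was at 775, 201, 170 and 250 TPM in controls and at 443, 233, 449 and 68.3 TPM in endFoxf1+/- libraries. It had the widest range of the 7, with control 1 above and endFoxf1+/- 4 below all the others. The means were 349 ± 286 and 298 ± 183 TPM (SD, n = 4 each), a log2 difference of -0.26 with a standard error of 0.67 (exact permutation test, two-sided, p = 0.743; limma adjusted p = 0.914). The sign rested on single libraries, since the log2 difference was 0.22 without control 1 and 0.33 without endFoxf1+/- 4. In C57BL/6 mice the I-E alpha gene is a known pseudogene, and I-E is not made despite transcription of the beta chain. Its symbol here, H2-Ea-ps, was at 0, 10.04, 7.70 and 1.17 TPM in controls and at 0, 5.36, 32.6 and 14.7 TPM in endFoxf1+/- libraries, below H2-Eb1 in 8 of 8 libraries.

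Class II promoters are known for an X box bound by the RFX complex and a Y box bound by NF-Y, on which CIITA is recruited. RefSeq promoter windows (GRCm38.p6, 250 bases before to 50 after the start site) were at hand for 4 of the 7 genes in 5 windows, and the 130 bases upstream of the start site are shown for both chain genes among them, as the place where these factors act. Capitals mark GCAAC, an RFX core, and ATTGG or its reverse complement CCAAT, the core of the Y box; each line reads 5′ to 3′ along the gene.
H2-Aa, chr17:34287824-34287953, minus strand: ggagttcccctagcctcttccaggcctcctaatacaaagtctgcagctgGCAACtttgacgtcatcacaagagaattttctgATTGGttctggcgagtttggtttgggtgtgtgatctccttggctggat
H2-Eb1, chr17:34305737-34305866, plus strand: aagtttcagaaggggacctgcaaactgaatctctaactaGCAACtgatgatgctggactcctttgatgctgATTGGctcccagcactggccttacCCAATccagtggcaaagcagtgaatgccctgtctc

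In both sequences GCAAC stood upstream of ATTGG on the strand of the gene, at -81 to -77 and -48 to -44 in H2-Aa and at -91 to -87 and -59 to -55 in H2-Eb1, counted in bases from the start site, leaving 28 and 27 bases between them. Searched on both strands with a spacing of 15 to 35 bases, this pair was found in 1.02% of 32851 RefSeq windows, while ATTGG alone was in 37.4% and GCAAC alone in 35.2%. H2-DMb1 held ATTGG at -61 to -57 and no GCAAC, 1 window of H2-DMa held a reverse GCAAC and the other an ATTGG, and neither gene held the pair in these windows. H2-Oa, H2-Ob and H2-Eb2, which are also class II genes, held the pair with 28, 25 and 27 bases between. These matches describe letters and do not show binding.

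Cd74 was among the most abundant transcripts in all 8 libraries. Its product, the invariant chain, guards the groove of new class II molecules and guides them to endosomes; the gene lies at chr18:60803848-60812652 on the plus strand. It was at 2242, 1222, 1119 and 775 TPM in controls and at 1244, 825, 1444 and 933 TPM in endFoxf1+/- libraries, and controls held both the highest and the lowest value. The means were 1339 ± 631 and 1112 ± 284 TPM (SD, n = 4 each), a log2 difference of -0.195 with a standard error of 0.38 (exact permutation test, two-sided, p = 0.686; limma adjusted p = 0.888). Its ratio to H2-Ab1 stayed between 1.29 and 2.19 over the 8 libraries, a narrower span than either transcript alone.

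The DM subunits were well below the classical chains, with H2-Ab1 exceeding H2-DMa by 8.51- to 16.9-fold over the 8 libraries. H2-DMa, the DM alpha chain (chr17:34119541-34139101, plus strand), was at 140, 73.1, 64.0 and 45.7 TPM in controls and at 83.1, 62.2, 73.6 and 25.3 TPM in endFoxf1+/- libraries, a log2 difference of -0.40 with a standard error of 0.44 (exact permutation test, two-sided, p = 0.486; limma adjusted p = 0.817). H2-DMb1, a DM beta chain (chr17:34153072-34160230, plus strand), was at 114, 62.4, 48.9 and 57.1 TPM in controls and at 96.2, 58.0, 44.6 and 33.1 TPM in endFoxf1+/- libraries, a log2 difference of -0.31 with a standard error of 0.37 (exact permutation test, two-sided, p = 0.457; limma adjusted p = 0.826). For both genes the groups overlapped, control 1 was highest and endFoxf1+/- 4 lowest. H2-DMb1 shares 22.7% of its 50-base transcript words with its paralog H2-DMb2, the only shared pair of 77 compared, so their TPM may have been split in counting. The annotated span of H2-DMa overlaps Brd2, CR974462.4 and Gm20493, that of H2-Eb1 overlaps Gm20513 and that of Ciita overlaps Dexi, each on the opposite strand, while H2-DMa also overlaps CR974462.3 and Cd74 overlaps Mir5107 on the same strand, and without strand information reads from such overlaps cannot be told apart.

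Ciita had the largest average log2 difference of the 7 in the deposited values, and it too failed the tests. The transactivator (chr16:10480059-10528418, plus strand) was at 49.1, 16.7, 9.53 and 12.99 TPM in controls and at 17.6, 10.8, 6.61 and 6.37 TPM in endFoxf1+/- libraries. Control 1 stood far above the other 7 libraries, and endFoxf1+/- 3 and 4 lay below every control. The means were 22.1 ± 18.3 and 10.3 ± 5.26 TPM (SD, n = 4 each), with a log2 difference of -0.85 and a standard error of 0.50 (exact permutation test, two-sided, p = 0.2; limma adjusted p = 0.790). Leaving out each library in turn gave log2 differences between -1.14 and -0.39, the smallest without control 1, and -0.70 without endFoxf1+/- 3.

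H2-Ab1 followed Ciita in 7 of the 8 libraries and parted from it in endFoxf1+/- 3, whereas H2-Aa did not follow Ciita in either case. The order of the other libraries by Ciita, from control 1, endFoxf1+/- 1, control 2, control 4, endFoxf1+/- 2 and control 3 to endFoxf1+/- 4, was also their order by H2-Ab1. As a description over these 7 libraries, Pearson's r with Ciita was 0.992 for H2-Ab1, 0.849 to 0.917 for H2-Eb1, H2-DMa, H2-DMb1 and Cd74, and 0.334 for H2-Aa. With endFoxf1+/- 3 included it was 0.664 for H2-Ab1, 0.921 for H2-DMb1 and -0.073 for H2-Aa. Control 1, the highest library for both Ciita and H2-Ab1, has much weight in these r. No r without control 1 and no share of all genes with such an r is given here. The ratio of H2-Ab1 to Ciita was 29.6, 45.4, 57.2 and 46.4 in controls and 48.8, 54.4, 166 and 67.0 in endFoxf1+/- libraries. It was higher on average in endFoxf1+/- libraries, by 0.76 on the log2 scale, but the groups overlapped (exact permutation test, two-sided, p = 0.0857). In endFoxf1+/- 3 H2-Aa ranked 1st and H2-Ab1, H2-Eb1 and Cd74 ranked 2nd of the 8 libraries, whereas Ciita and H2-DMb1 ranked 7th.

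**Figure D2:**
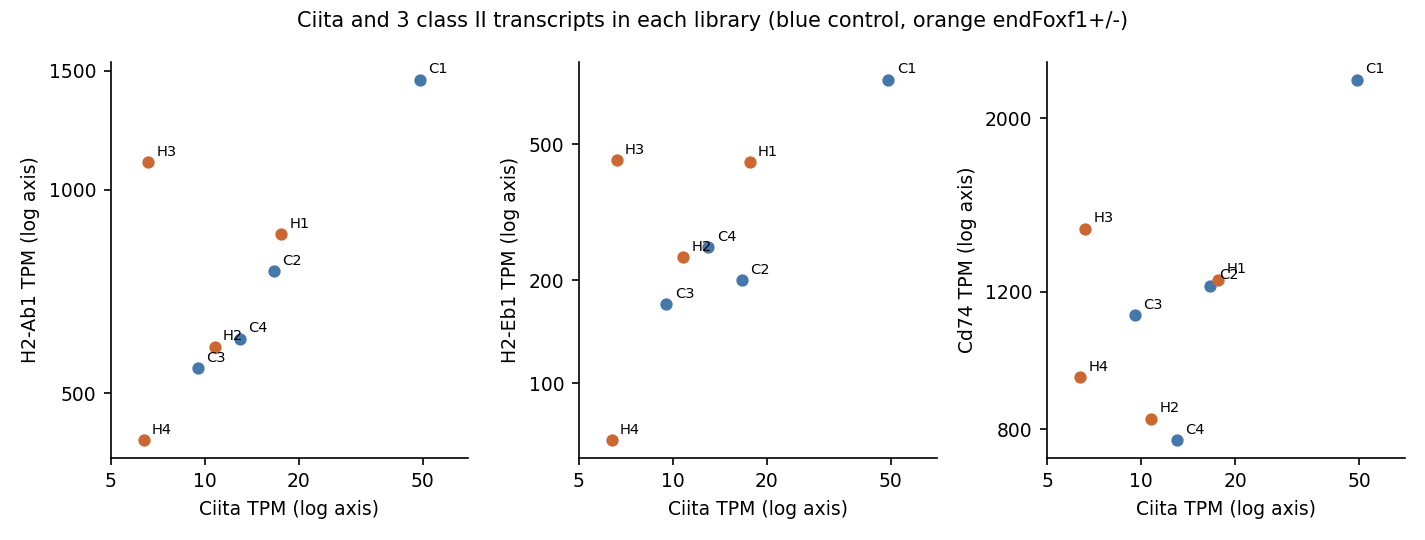
Ciita TPM against H2-Ab1, H2-Eb1 and Cd74 TPM (all axes log) in each library, controls C1 to C4 in blue and endFoxf1+/- H1 to H4 in orange. H3 lies apart from the rest, with 6.61 TPM of Ciita beside 1099 TPM of H2-Ab1, and among the other 7 libraries H2-Ab1 keeps the order of Ciita.

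Relative to endothelial transcripts, the class II genes were not distinguishable between the groups. Each gene's log2(TPM + 1) was set against the mean log2(TPM + 1) of the 20 endothelial markers. The average log2 difference was 1.41 for H2-Aa, 1.04 for H2-Ab1, 0.93 for H2-Eb1, 0.79 for H2-DMa, 0.88 for H2-DMb1, 0.996 for Cd74 and 0.34 for Ciita, and the exact permutation tests (two-sided) gave p between 0.343 and 0.743. The median over all tested genes on this scale was 1.02, so the shift was shared with genes at large. No member was free of overlap between the groups, against 9.87% of all tested genes.

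Those positive averages rested on endFoxf1+/- 3. Relative to endothelial markers, H2-Ab1 was at 1.56, 0.66, 0.45 and 0.23 in controls and at 0.81, 0.23, 5.34 and 0.68 in endFoxf1+/- libraries on the log2 scale. Thus 3 of the 4 endFoxf1+/- values lay among or at the edge of the controls, and 1 lay far above them. Without endFoxf1+/- 3 the log2 differences were 0.16 for H2-Aa, -0.15 for H2-Ab1, -0.35 for H2-Eb1, -0.31 for H2-DMa, -0.01 for H2-DMb1, -0.11 for Cd74 and -0.48 for Ciita, with exact permutation p (two-sided) between 0.514 and 1.0 and a median over all tested genes of 0.23. In endFoxf1+/- 3 itself the members exceeded the control mean on this scale by 6.92-fold for Ciita to 36.1-fold for H2-Aa, while Ptprc exceeded it by 220-fold.

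Relative to Ptprc, all 7 averages were lower in endFoxf1+/- libraries, as were those of genes at large. The log2 differences were -1.19 for H2-Aa, -1.56 for H2-Ab1, -1.67 for H2-Eb1, -1.81 for H2-DMa, -1.72 for H2-DMb1, -1.60 for Cd74 and -2.26 for Ciita, and the median over all tested genes was -1.58. H2-DMa alone did not overlap between the groups, that is 1 of 7 members, against 12.4% of all tested genes that were lower without overlap on this scale. H2-DMa relative to Ptprc was at 3.93, 3.32, 2.68 and 3.57 in controls and at 2.26, 2.53, -0.31 and 1.79 in endFoxf1+/- libraries (log2), which reached the smallest p that the exact permutation test (two-sided) allows with 4 against 4, 0.0286. The other 6 had exact permutation p between 0.0571 and 0.114. Ptprc itself was higher in endFoxf1+/- libraries by 1.41 on the log2 scale (exact permutation test, two-sided, p = 0.114) and by 0.65 without endFoxf1+/- 3 (p = 0.257), and this difference is part of every value relative to it. Against the mean of 10 leukocyte markers in place of Ptprc, H2-DMa and Cd74 did not overlap, that is 2 of 7 members against 31.8% of all tested genes that were lower without overlap.

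Without endFoxf1+/- 3 the differences relative to Ptprc were smaller, from -1.34 for Ciita to -0.71 for H2-Aa, with -1.18 for H2-DMa (exact permutation test, two-sided, p = 0.0571), beside a median of -0.64 over all tested genes. The spread of the members between libraries also depended on the reference. Over all 8 libraries the SD of log2 TPM + 1 was 0.54 for H2-Aa, 0.58 for H2-Ab1 and 0.49 for Cd74, and it rose to 1.89, 1.71 and 1.63 relative to endothelial markers and to 0.99, 1.19 and 1.24 relative to Ptprc. Neither reference made the levels of these 3 genes more alike over the 8 libraries. With endFoxf1+/- 3 left out, the SD relative to endothelial markers was below that of the deposited level for 5 of the 7 genes, namely H2-Ab1 (0.45 against 0.57), H2-Eb1 (0.85 against 1.09), H2-DMa (0.55 against 0.75), H2-DMb1 (0.40 against 0.59) and Ciita (0.72 against 0.88). It was above it for H2-Aa (0.61 against 0.41) and Cd74 (0.56 against 0.51), and relative to Ptprc it was above the deposited level for all 7, at 0.62 for H2-Aa to 1.10 for H2-Eb1.

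**Figure D3:**
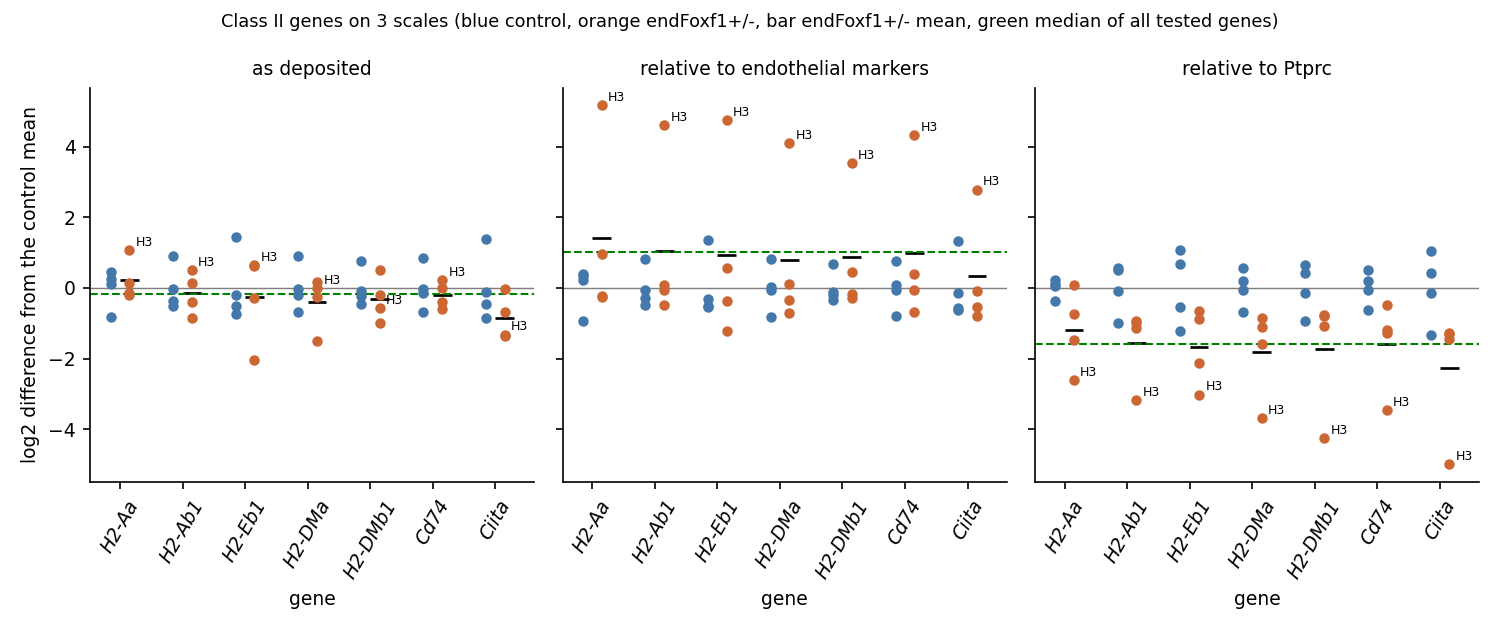
Log2 difference of each library from the control mean for the 7 genes, as deposited, relative to 20 endothelial markers and relative to Ptprc (blue control, orange endFoxf1+/-, bar for the endFoxf1+/- mean, green dashed line for the median of all tested genes). H3, which is endFoxf1+/- 3, lies above all others relative to endothelial markers and below them relative to Ptprc for all 7 genes, and the bars lie near the green line for most genes but below it for Ciita, for example at -2.26 against -1.58 relative to Ptprc.

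Markers of cells known to carry class II were examined beside these levels. The 10 leukocyte markers, all higher on average in endFoxf1+/- libraries, summed to 129 to 286 TPM in controls and to 277 to 3404 TPM in endFoxf1+/- libraries, the highest sum in endFoxf1+/- 3. The leukocyte markers Cd53, Spi1 and Rac2, 3 of 10, and the macrophage markers Cd68, Mrc1, C1qa and Fcgr1, 4 of 10, were above every control in all 4 endFoxf1+/- libraries, against 5.04% of all tested genes without overlap. Of 10 macrophage markers 9 were higher on average, and C1qb, a complement gene of macrophages, was at 15.2 to 31.2 TPM in controls and at 72.4, 82.8, 592 and 17.2 TPM in endFoxf1+/- libraries. The macrophage list summed to 1522 to 5111 TPM in controls and 1919 to 8605 TPM in endFoxf1+/- libraries, most of it Lyz2, which alveolar type 2 cells also express. None of the leukocyte or macrophage markers was at 0 in all libraries. Their part in the class II levels was not tested.

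B cell and dendritic cell markers were mostly low, and 7 of 8 B cell and 5 of 8 dendritic cell markers were highest in endFoxf1+/- 3. The 8 B cell markers summed to 9.41 to 29.2 TPM in controls and 9.12 to 72.7 TPM in endFoxf1+/- libraries, 3 of the 5 tested being higher on average. The 8 dendritic cell markers summed to 131 to 220 TPM in controls and 66.8 to 216 TPM in endFoxf1+/- libraries, 2 of the 5 tested being higher on average, and the cross-presenting cell marker Xcr1 did not exceed 1.92 TPM. In the other 7 libraries most of the dendritic sum was Clec9a and Zbtb46, which were at 81.5 to 155 and 43.5 to 59.8 TPM in controls and at 9.63 and 3.49 TPM in endFoxf1+/- 3, the library short of endothelial transcripts. Other dendritic cell markers went the opposite way: Itgax was at 1.52 to 2.18 TPM in controls and 29.5 TPM in endFoxf1+/- 3, Ccr7 did not exceed 0.981 TPM in controls and was at 12.5 TPM there, and Cd209a did not exceed 0.623 TPM in controls and was at 10.2 TPM there. These 3 were named after their values were seen. Sftpc, the surfactant gene of alveolar type 2 cells, which are also known to carry class II, was at 9044, 5483, 26986 and 7697 TPM in controls and at 9455, 2201, 1130 and 19867 TPM in endFoxf1+/- libraries. It was highest in control 3 and endFoxf1+/- 4, neither of which ranked above 4th of the 8 libraries for any of the 7 genes. No marker of these 3 lists was at 0 in all libraries, and their part in the class II levels was not tested.

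**Figure D4:**
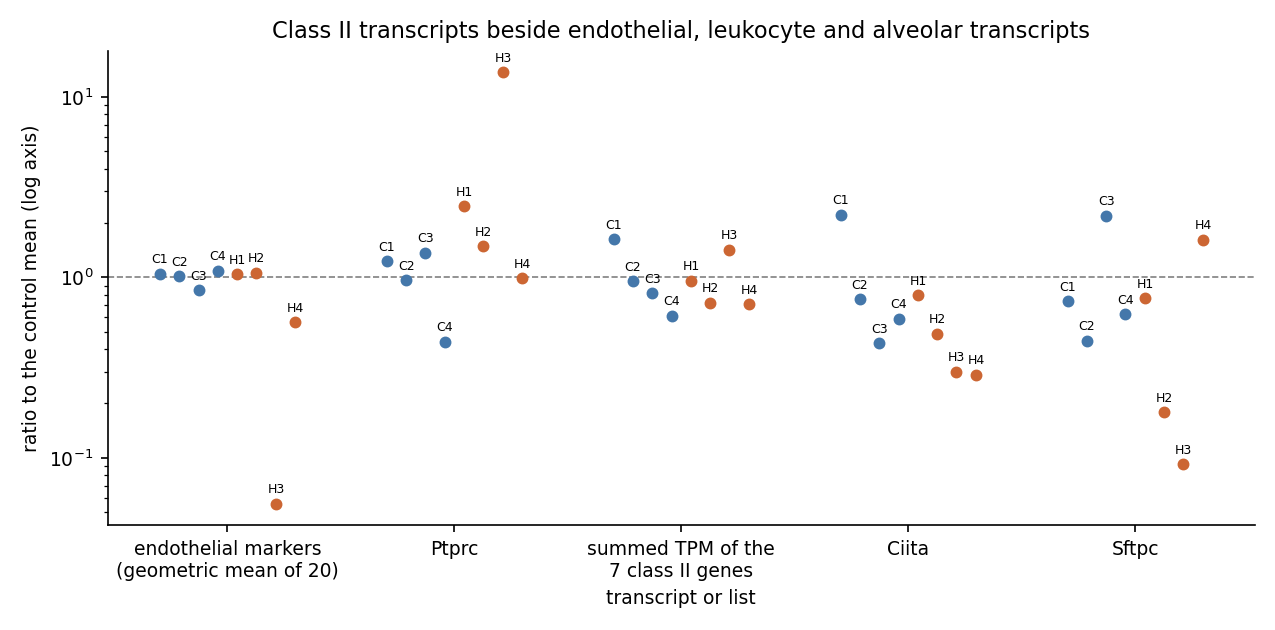
Ratio to the control mean (log axis) in each library, C1 to C4 control in blue and H1 to H4 endFoxf1+/- in orange, for 20 endothelial markers, Ptprc, the summed TPM of the 7 class II genes, Ciita and Sftpc. In H3 endothelial markers stand at 5.56% of the control mean and Ptprc at 1366% of it, while the class II sum is at 142% and Ciita at 29.9%.

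The remaining class II genes of the H2 locus were low. H2-DMb2, the second DM beta gene, was at 3.17, 10.7, 13.7 and 1.45 TPM in controls and at 2.79, 5.21, 15.5 and 6.29 TPM in endFoxf1+/- libraries. H2-Ob, a subunit of the DM inhibitor DO, did not exceed 5.46 TPM, its partner H2-Oa did not exceed 6.71 TPM, and H2-Eb2 did not exceed 0.437 TPM. Of this list 5 of 6 symbols were in the tables and 3 were tested, all 3 higher on average and none with an unadjusted limma p under 0.05. Leaving out endFoxf1+/- 3 moved the log2 difference from 0.17 to -0.22 for H2-DMb2, from 1.001 to 0.29 for H2-Ea-ps and from 0.16 to 0.11 for H2-Ob. H2-Oa, which is known chiefly from B cells and dendritic cells, was highest in endFoxf1+/- 3.

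Genes that prepare peptides were mostly higher on average in endFoxf1+/- libraries. Of 7 lysosomal proteases and reductases, 6 were higher on average and 1 lower, 0 passed an adjusted or unadjusted limma p of 0.05, and 2 did not overlap between the groups, where 5.04% of all tested genes did not. The list median was 0.68 and became 0.27 without endFoxf1+/- 3. In that library the leukocyte markers summed to 3404 TPM and the macrophage markers to 8605 TPM. Like these 2 genes, 3 leukocyte and 4 macrophage markers were above every control in all 4 endFoxf1+/- libraries. So were 1 of 7 tested T cell markers and 2 of 8 fibroblast and pericyte markers, Dcn and Lum. Below every control lay 1 of 8 fibroblast and pericyte markers and 3 of 8 erythroid and platelet markers. The part of these cell types in the differences was not tested. Ctsb, cathepsin B, was at 64.7, 63.4, 61.3 and 58.2 TPM in controls and at 81.0, 88.7, 276 and 78.8 TPM in endFoxf1+/- libraries, a log2 difference of 0.84 (exact permutation test, two-sided, p = 0.0286; limma adjusted p = 0.790). Ifi30, the thiol reductase GILT that unfolds antigens, was at 36.8, 36.9, 49.7 and 34.2 TPM in controls and at 50.2, 57.4, 328 and 61.8 TPM in endFoxf1+/- libraries, a log2 difference of 1.15 (exact permutation test, two-sided, p = 0.0286; limma adjusted p = 0.790). All 4 endFoxf1+/- libraries lay above all controls for both genes, endFoxf1+/- 3 by far the highest. Both differences stayed positive when any single library was left out, at 0.41 for Ctsb and 0.52 for Ifi30 without endFoxf1+/- 3 (exact permutation test, two-sided, p = 0.0286 and 0.0571).

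No factor that acts on the class II promoters passed a test. Of 7 class II promoter factors, 7 were lower on average, as were 10182 of the 14964 tested genes, with a list median of -0.16 that became 0.02 without endFoxf1+/- 3, close to the medians of all tested genes, and none had an unadjusted limma p under 0.05. Rfx5, the DNA-binding subunit of RFX, was at 7.84, 9.35, 6.30 and 7.95 TPM in controls and at 5.15, 7.32, 3.07 and 5.02 TPM in endFoxf1+/- libraries (log2 difference -0.56, exact permutation test, two-sided, p = 0.0571). Rfxap, another RFX subunit, had a log2 difference of -0.48 with the same exact permutation p of 0.0571. The log2 differences without endFoxf1+/- 3 were -0.38 for Rfx5 and -0.49 for Rfxap. For both, 3 of 4 endFoxf1+/- libraries lay below every control.

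In the interferon gamma pathway that induces Ciita, 6 of 7 genes were tested and all 6 were, like those 10182 genes, lower on average, with a list median of -0.46 against -0.17 over all tested genes, and of -0.25 without endFoxf1+/- 3. Irf1, an interferon-induced activator of Ciita, was at 250.7, 185, 162 and 187 TPM in controls and at 172, 153, 50.9 and 122 TPM in endFoxf1+/- libraries (log2 difference -0.77, exact permutation test, two-sided, p = 0.0571). Of the endFoxf1+/- libraries 3 of 4 lay below every control. Irf1 did not pass the adjusted threshold (limma adjusted p = 0.790), and its log2 difference was -0.39 without endFoxf1+/- 3. Relative to endothelial markers it was 0.42 over all libraries and -0.17 without endFoxf1+/- 3. Ifng was not tested and did not exceed 4.97 TPM in any library.

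Co-stimulatory genes, which decide how a T cell answers class II, were mixed, 2 higher and 2 lower of 4 tested out of 6. Cd274, which encodes the inhibitory ligand PD-L1 and is itself induced by interferon gamma, was at 58.2, 56.4, 43.7 and 52.5 TPM in controls and at 42.0, 31.9, 19.5 and 22.2 TPM in endFoxf1+/- libraries. All 4 endFoxf1+/- libraries lay below all controls, with a log2 difference of -0.90 and a standard error of 0.27 (limma p = 0.00858, adjusted p = 0.790; exact permutation test, two-sided, p = 0.0286). In this list 1 of 4 tested genes had groups without overlap and 1 of 4 an unadjusted limma p under 0.05. Of all tested genes 5.04% and 5.59% did. For Cd274 the log2 difference was -0.74 without endFoxf1+/- 3. Relative to endothelial markers it was 0.29 over all libraries, where the groups overlapped, and -0.52 without endFoxf1+/- 3. Cd40 had a log2 difference of -0.54, with overlap, and of -0.17 without endFoxf1+/- 3. Of the ubiquitin ligases that send class II to degradation, March1 and March8 were tested and both were higher on average, by 0.69 and 0.04 on the log2 scale, with overlap. March1 was at 8.46 TPM in endFoxf1+/- 3, and without that library the log2 differences were 0.15 for March1 and 0.21 for March8.

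**Figure D5:**
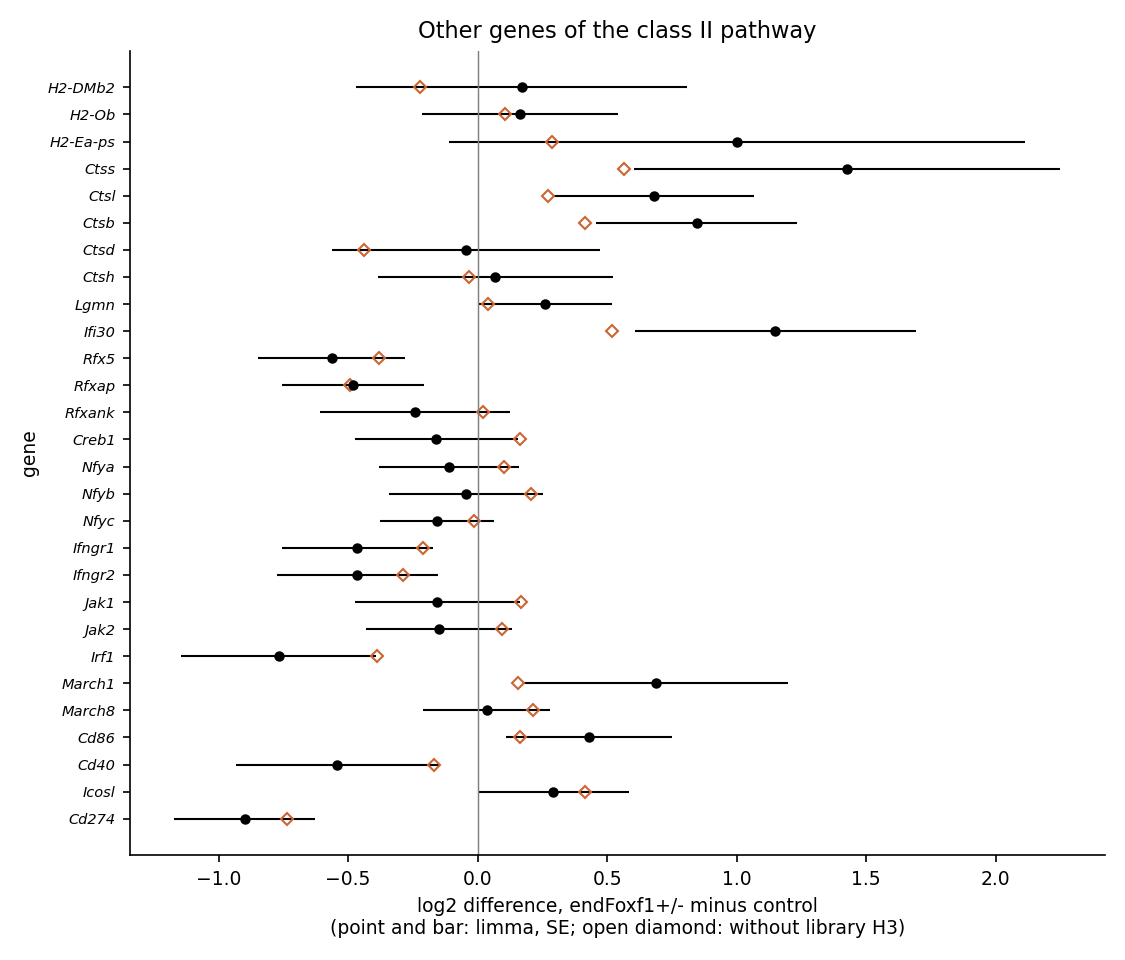
Log2 difference (endFoxf1+/- minus control) of tested genes of the class II pathway that are not among the 7, from limma on log2(TPM + 1), as points with standard errors, and without endFoxf1+/- 3 as open diamonds. Ctsb and Ifi30 lie at 0.84 and 1.15, Cd274 lies at -0.90, and the diamonds of all 3 lie nearer to 0.

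The tested genes whose profile over the 8 libraries was most like the mean standardized log2(TPM + 1) of the 7 were Pkp3, Fam209, Cct7, Hook2 and Gm10961, with Pearson's r from 0.908 to 0.940 as a description over 8 libraries. They were picked as the highest among all tested genes, so their r are high by selection. Fam209 did not exceed 2.44 TPM and Gm10961 did not exceed 4.85 TPM. Over the 7 libraries without endFoxf1+/- 3 the leading genes, picked in the same way, were BC005561, Gm12250, Ddx5, Pkp3 and Chrnb2, with r from 0.960 to 0.967. Pkp3 alone was in both lists, at 10.1, 5.19, 4.89 and 4.25 TPM in controls and at 7.80, 5.31, 5.30 and 3.32 TPM in endFoxf1+/- libraries. For BC005561 and Ddx5 r was 0.129 and 0.0971 once endFoxf1+/- 3 was included, so the likeness depended on that library.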

How the data were processed

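TEC RNA was sequenced from Nextera XT libraries, which do not mark strand. The authors deposited TPM per gene symbol for each library, and each library's TPM sum to 1000000; the submitters' processing notes name TopHat, Cufflinks, Subread, DESeq2, GRCm38 and mm10 without roles. The tool that made the TPM is not given in the sources used here. TPM keep no depth, so depth is unknown and no counting interval was computed; precision rests on 4 libraries per group. DESeq2 needs counts and was not repeated. No pair of libraries among 28 was identical.

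Groups came from the genotype label. TPM were analysed as log2(TPM + 1), a scale that understates changes of low genes, with limma 3.58.1 (R 4.3.3; lmFit, eBayes with trend, no covariate) over 14964 genes with at least 1 TPM in at least 4 libraries, Benjamini-Hochberg adjustment and a threshold of 0.05. Single values, and values relative to 20 endothelial markers or Ptprc, were compared by the exact two-sided permutation test over 70 assignments. With libraries left out fewer assignments remained, so those p-values are not directly comparable with the ones over 8 libraries. The fit was tested on simulated data. Coordinates are from GENCODE vM21 (GRCm38), promoters from RefSeq. The members and lists were chosen with earlier results of these data known. Named were the 7 members, all locus genes, and from each pathway list the genes with unadjusted p under 0.05 or no overlap, filled to 2 by p; some items are not reported here. Alternatives were other pseudocounts, filters, normalizations, library weights and references, and libraries left out.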

Additional observations from a re-analysis of the deposited data

Results flagged for a closer look

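Single libraries stood apart from the other 3 of their group (Dixon's test) in 7 of 42 groups checked. Chance flags about 1 in 20 of independent groups. These groups share the same 8 libraries and references, so the count cannot be read as an excess over chance. All 7 flagged values were relative to a reference, on the log2 scale. Of them 5 were in endFoxf1+/- 3, the library with few endothelial transcripts. Relative to the endothelial markers, H2-Ab1 in endFoxf1+/- 3 was at 5.34 against 0.23 to 0.81 in the others, and H2-DMa there was at 1.45 against -3.35 to -2.55. Relative to Ptprc, H2-Ab1 in endFoxf1+/- 3 was at 3.58 against 5.62 to 5.81, H2-DMb1 was at -1.02 against 2.16 to 2.47, and Ciita was at -3.60 against -0.05 to 0.11. Among controls, H2-Aa relative to the endothelial markers in control 4 was at 0.41 against 1.58 to 1.73, and H2-Eb1 in control 1 was at 0.65 against -1.25 to -1.03. The deposited TPM of no member stood apart in this way.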

How the results depend on the processing

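Under all 17 alternatives to the fit, 0 of the 7 members passed an adjusted p of 0.05. Among all tested genes 0 passed in the main fit, 148 with array weights (which gave endFoxf1+/- 3 a weight of 0.0643 and endFoxf1+/- 4 0.178), 3 without both of these libraries, and 0 to 1 with any 1 library left out (1 without control 1 and 1 without endFoxf1+/- 3). The median log2 difference of all genes was -0.17 as deposited, -0.01 after quantile normalization, -0.02 after median-ratio scaling and 0.13 with array weights. Of the 7, Ciita kept its sign under every alternative but fell to -0.14 with array weights and to -0.36 without endFoxf1+/- 3 and 4. Array weights turned H2-Aa to -0.11, H2-Ab1 to 0.047, H2-Eb1 to 0.47, H2-DMa to 0.10 and H2-DMb1 to 0.33, median-ratio scaling turned H2-Ab1 to 0.037, and leaving out endFoxf1+/- 3 and 4 turned H2-Aa to -0.17, H2-Eb1 to 0.17 and H2-DMb1 to 0.16. With 1 library left out, H2-Aa ranged from -0.062 to 0.37, H2-Ab1 from -0.37 to 0.15, H2-Eb1 from -0.57 to 0.33 and Cd74 from -0.42 to 0.089. In all, 103 such values kept their sign and 16 did not.

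Relative to endothelial markers, leaving out endFoxf1+/- 3 turned 6 of 7 averages negative. With 1 library left out H2-Ab1 ranged from -0.15 to 1.55, H2-Eb1 from -0.35 to 1.65, H2-DMa from -0.31 to 1.29, H2-DMb1 from -0.0070 to 1.27, Cd74 from -0.11 to 1.56 and Ciita from -0.48 to 0.78, all lowest without endFoxf1+/- 3. Leaving out endFoxf1+/- 3 and 4 gave -0.25 for H2-Aa, -0.21 for H2-Ab1, -0.12 for H2-DMa, -0.37 for Cd74 and -0.44 for Ciita, and 0.092 for H2-Eb1 and 0.079 for H2-DMb1. Relative to Ptprc, the exact permutation p of H2-DMa was 0.0571 when any 1 of the 4 controls or endFoxf1+/- 3 was left out. Fewer assignments remain there, and its groups still did not overlap. Without endFoxf1+/- 3 and 4 its log2 difference was -0.98 (exact permutation p = 0.133, over fewer assignments still). Against 10 leukocyte markers H2-DMa (-1.72, and -1.10 without endFoxf1+/- 3) and Cd74 (-1.52, and -0.90) had an exact permutation p of 0.0286 in both cases, where 31.8% of tested genes were lower without overlap. With 1 library left out relative to Ptprc, the exact permutation p ranged from 0.0286 to 0.171 for H2-Aa (lowest without endFoxf1+/- 4, -1.61), from 0.0286 to 0.114 for H2-Ab1 (without control 3, -1.89), from 0.0286 to 0.0857 for Cd74 (without endFoxf1+/- 4, -1.97) and from 0.0286 to 0.229 for Ciita (without control 3, -2.70); without these libraries 31.3% (endFoxf1+/- 4) and 38.6% (control 3) of tested genes were lower without overlap. The causes were not tested. No paired analysis was possible because the labels give no shared replicate numbers. TPM carry no depth, so low values such as those of Ciita have unknown counting error.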
